A study of Mus musculus with 2 samples.

Results

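The 35 genes described here are immediate early and early response genes, taken as a list of symbols from the 32285 genes of the count tables, in which each of the 35 was found. The data are single-cell RNA counts from the optic nerves of Nf1-OPG mice, a strain that forms low-grade gliomas there. In these mice 1 Nf1 allele carries a neomycin cassette and the other is a floxed allele, removed by a Cre under the GFAP promoter in neuroglial progenitors (Nf1 flox/neo; GFAP-Cre). Cells outside that lineage, such as T cells and microglia, therefore keep the floxed allele, and all mice of both groups share this genotype. The vancomycin group received the antibiotic vancomycin from 6 to 12 weeks of age, and the control group, labelled control, is paired in the series design with saline (PBS) over the same weeks. Each group is 1 library, made from the pooled tissue of 10 animals aged 12 weeks. The labels' protocols describe enzymatic dissociation with removal of debris and myelin for the nerves, and a live-cell sort for the meningeal dura, while both libraries are labelled optic nerve. The control's title also carries the tag ON, which the vancomycin title lacks, and the labels do not say what tissue, beside the nerve, entered either library. The series is about gut Bacteroides, glioma growth and the entry of CD8 T cells into the tumour. Here the levels of the 35 genes were set out by cell class and compared between the libraries within each class.

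Immediate early genes are transcribed within minutes of a stimulus from factors that are already present in the cell, so their induction needs no new protein. Growth factors, cytokines, antigen receptors, injury and tissue dissociation all induce them, through MAP kinases acting on serum response factor and its partners at CArG boxes and through CREB at cAMP response elements. Many of their products are transcription factors (the Fos, Jun and EGR families), and others end the response by removing phosphate from MAP kinases, by destroying mRNA or by blocking cytokine receptors. In brain tissue they are known both as markers of activated cells and as genes that rise while tissue is taken apart.

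By role the 35 genes are 4 of the Fos family (Fos, Fosb, Fosl1, Fosl2) and 3 of the Jun family (Jun, Junb, Jund), which pair to form the factor AP-1, 3 EGR zinc fingers (Egr1, Egr2, Egr3), 4 KLF zinc fingers (Klf2, Klf4, Klf6, Klf10), 3 further leucine zipper genes (Atf3 and the small Maf genes Maff and Mafk) and 3 immediate early response genes (Ier2, Ier3, Ier5). The rest are 3 MAP kinase phosphatases (Dusp1, Dusp2, Dusp5), 4 genes of mRNA decay (Zfp36, Zfp36l1, Btg1, Btg2), 6 inhibitors of signalling and stress genes (Socs3, Nfkbiz, Trib1, Csrnp1, Gadd45b, Ppp1r15a), the matrix gene Ccn1 and the GTPase gene Rhob. On GRCm38 with GENCODE M21, Fos lies on the plus strand at chr12:85473890-85477273 and Jun, a gene of a single exon, on the minus strand at chr4:95049034-95052222.

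RNA molecules were counted by unique molecular identifiers (UMIs), of which there were 144451114 in 16596 vancomycin barcodes and 25609899 in 4272 control barcodes. After filtering there were 15726 vancomycin cells with a median of 6970 UMIs and 4108 control cells with a median of 4870.5 UMIs. Both libraries held 100 cell barcodes in common. A cell took a class when at least 3 of 8 gate markers of that class were detected and at least 2 more than of any other class. Levels are given as CPM, the UMIs of a gene in a class scaled to a common total of all UMIs of that class. The classes compared had at least 50 cells in each library: T cells (3778 vancomycin and 1836 control cells), natural killer (NK) cells (111 and 87), plasma cells (765 and 92), microglia (1066 and 960), fibroblasts (215 and 98) and cells of the astrocyte gate (144 and 58). Markers kept out of the gates were set beside each name, and those of T cells, NK cells, plasma cells, microglia and fibroblasts were present in both libraries. The astrocyte name held only in part in the control. The gate markers summed to 9664 CPM with vancomycin and 7014 CPM in the control. Gfap, the filament protein of astrocytes, was at 990 CPM in vancomycin cells of that gate and at 25.5 CPM in control cells, S100b at 299 and 37.0 CPM, Clu at 3894 and 759 CPM, and the glutamate transporter gene Slc1a2 at 1301 and 722 CPM. The 15 genes leading the control cells held astrocyte genes such as Aldoc and Agt beside Nnat, Mest and Scn7a, so the cells are called cells of the astrocyte gate below, and counts over classes are also given without them. Haemoglobin RNA also differed between the libraries in most classes. The 4 haemoglobin genes summed to 15024 CPM in vancomycin and 49.9 CPM in control fibroblasts, to 4779 and 42.9 CPM in microglia, and to 2293 and 2839.9 CPM in plasma cells, while the 8 erythroid gate markers summed to 95.6 CPM or less in both libraries of these 3 classes. The 4 oligodendrocyte markers kept out of the gate also differed, with 4156 oligodendrocytes in the vancomycin library and 0 in the control. They summed to 1216 CPM in vancomycin and 206 CPM in control T cells, to 1229 and 175 CPM in NK cells, to 848 and 119.6 CPM in microglia, to 865 and 65.5 CPM in fibroblasts and to 1413 and 157 CPM in cells of the astrocyte gate. The part of haemoglobin and oligodendrocyte RNA in the results was not tested. With 1 library per group there is no replicate and no test, and every interval is a 95% interval for counting error only. The treatment cannot be told apart from whatever else differed between the libraries, among it the Cell Ranger version and the mix of cells.

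Promoter stretches of 6 of the genes are shown because they hold the control elements through which this gene group is known to be induced, and their levels are described below. RefSeq promoter windows on GRCm38.p6 were found for 28 of the 35 genes, and the 250 bases before each start were searched on both strands. A CArG box, the site of serum response factor, was present in 3 of the 28 windows (10.7%), against 439 of 27025 windows of all genes (1.62%). A cAMP response element, TGACGTCA, which reads the same on both strands and cannot overlap a CArG box, was present in 4 of the 28 (14.3%), against 478 of 27025 (1.77%). Each stretch is 60 bases, written 5′ to 3′ on the strand of the gene, with the matched element in capitals. The first 3 hold a CArG box, Dusp5 2 of them side by side, and the next 3 a cAMP response element, which Maff, not shown, holds too.
Zfp36, chr7:28379252-28379311, minus strand: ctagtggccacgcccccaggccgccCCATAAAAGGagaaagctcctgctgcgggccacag
Egr2, chr10:67537469-67537528, plus strand: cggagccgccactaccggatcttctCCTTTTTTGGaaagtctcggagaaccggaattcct
Dusp5, chr19:53529038-53529097, plus strand: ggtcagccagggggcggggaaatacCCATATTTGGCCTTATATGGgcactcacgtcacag
Btg2, chr1:134079288-134079347, minus strand: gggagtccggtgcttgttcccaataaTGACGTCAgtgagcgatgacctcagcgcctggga
Dusp1, chr17:26508582-26508641, minus strand: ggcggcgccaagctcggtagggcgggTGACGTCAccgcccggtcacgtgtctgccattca
Ppp1r15a, chr7:45526269-45526328, minus strand: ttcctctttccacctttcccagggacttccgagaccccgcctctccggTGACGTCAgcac
Zfp36, which encodes the mRNA decay factor tristetraprolin, has its CArG box between 58 and 49 bases before the start. In Ppp1r15a, which encodes a subunit that brings a phosphatase to the translation factor eIF2α, the element lies between 12 and 5 bases before the start. These are matches of letters and say nothing of binding in these cells.

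Microglia and border-associated macrophages held the most RNA of the 35 genes with vancomycin, while fibroblasts did in the control. In the vancomycin library the 35 genes summed to 35787 CPM in microglia, 33989 CPM in border-associated macrophages (123 cells) and 25042 CPM in endothelial cells (107 cells), and the lowest sum was that of the 4156 oligodendrocytes, at 3253 CPM. Among control classes of at least 50 cells they summed to 48924 CPM in fibroblasts, 34444 CPM in cells of the astrocyte gate and 32015 CPM in microglia, and the lowest sum was that of plasma cells, at 5319 CPM. T cells were in the lower part of both orders, at 11573 CPM with vancomycin and 12819.7 CPM in the control. Levels between genes are not corrected for transcript length, but the kit reads transcripts at their 5′ end.

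**Figure D1:**
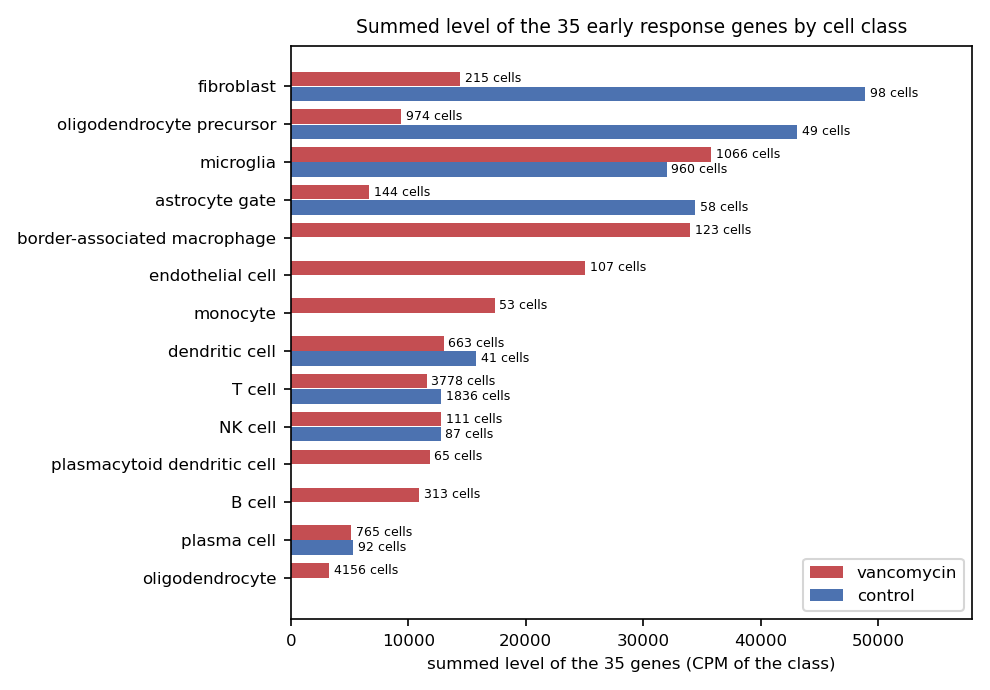
Summed level of the 35 genes (CPM, horizontal axis) in each cell class (vertical axis) with at least 50 cells in that library, and in dendritic cells and oligodendrocyte precursors, for the vancomycin library (red, upper bar) and the control library (blue, lower bar), with cell numbers. Fibroblasts were at 14422 CPM with vancomycin against 48924 CPM in the control, while microglia were at 35787 against 32015 CPM.

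The class with the highest level differed between role groups. With vancomycin, the AP-1 genes Fos and Junb were highest in microglia, at 4046 and 5006 CPM, and Jun was highest in border-associated macrophages, at 2827 CPM, with microglia next to them at 2718 CPM and overlapping intervals. Among the EGR zinc fingers, Egr1 was highest in microglia (2995 CPM) and Egr2 in border-associated macrophages (273 CPM). Klf2, a zinc finger factor known from quiescent endothelium and lymphocyte homing, was highest in endothelial cells, at 3325 CPM. The MAP kinase phosphatases split, with Dusp1 highest in border-associated macrophages (2306 CPM) and Dusp2 and Dusp5 in NK cells (459 and 717 CPM). For Dusp1, endothelial cells were next, at 2068 CPM, with overlapping intervals. Ccn1, a secreted matrix protein gene, was highest in cells of the astrocyte gate, at 399 CPM with vancomycin and 3518 CPM in the control, and reached at most 1.65 CPM in T cells, NK cells, plasma cells and microglia of either library. In the control, Fos, Egr1 and Jun were highest in fibroblasts among the 6 classes compared, at 8186, 6717 and 5006 CPM. Atf3 and Rhob were highest in microglia there, at 2481 and 1849 CPM. Control oligodendrocyte precursors (49 cells), not among the 6 classes, summed to 43087 CPM over the 35 genes. Their Fos, Egr1 and Jun levels, given below, were above those of control fibroblasts. Btg1, an antiproliferative gene whose protein recruits mRNA deadenylases, was highest in lymphocytes in both libraries, in NK cells with vancomycin (1647 CPM) and in T cells in the control (1849 CPM).

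Set against the control within classes, the genes were lower in fibroblasts and in cells of the astrocyte gate and went in both directions in the immune classes. Ratios put vancomycin over control. Log2 ratios had 10 CPM added above and below and were taken for genes with at least 50 UMIs in a class, and a gene counted as higher or lower from 2-fold on this scale, a log2 ratio of 1 or -1. Over the 6 classes, 9 pairs of gene and class were higher, where 3.06% of all pairs of measured gene and class were, and 65 were lower, where 2.23% were. These were counted among 181 measured pairs of member and class. Without the astrocyte gate, 9 of 153 measured pairs were higher, where 2.61% of all pairs were, and 39 were lower, where 1.94% were. The median log2 ratio of the measured members was -0.04 in T cells (33 genes), 0.27 in NK cells (23), -0.10 in plasma cells (33), -0.31 in microglia (34), -1.72 in fibroblasts (30) and -2.29 in cells of the astrocyte gate (28). Over all measured genes the medians of these classes lay between -0.08 and 0.10. Under 50 UMIs, and so without a ratio, were Ccn1 in microglia, Ccn1 and Fosl1 in T cells and plasma cells, Fosl1, Egr3, Klf10, Dusp2 and Dusp5 in fibroblasts and in cells of the astrocyte gate, Fosl2 and Mafk in the astrocyte gate as well, and 12 genes in NK cells.

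**Figure D2:**
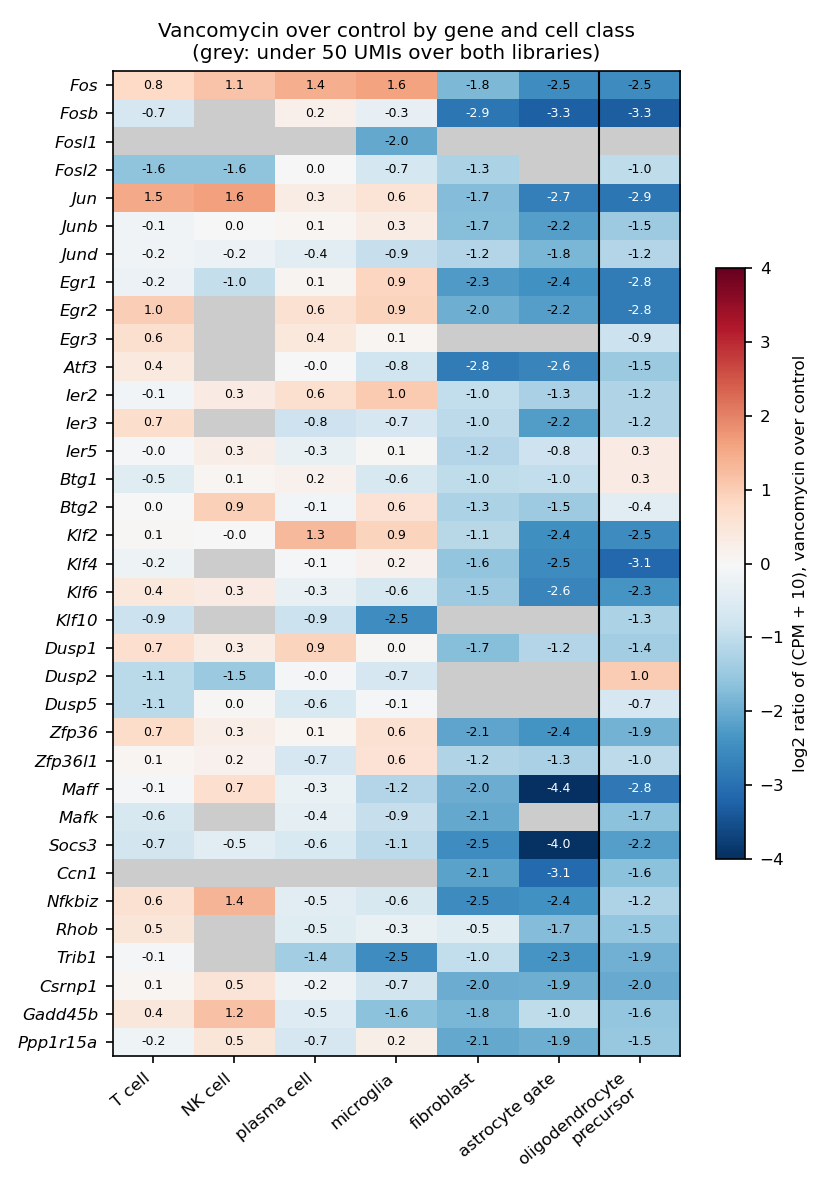
Log2 ratio of (CPM + 10), vancomycin over control, for each of the 35 genes (rows) in the 6 compared classes and, right of the line, in oligodendrocyte precursors (49 control cells). Red marks higher and blue lower with vancomycin, and grey marks genes with under 50 UMIs. Every measured gene was below 0 in fibroblasts and in cells of the astrocyte gate.

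In microglia, the resident macrophages of nervous tissue, 2 of the 34 measured genes were higher, where 2.55% of all genes were, and 6 were lower, where 2.28% were. Fos, the founding AP-1 partner of Jun, was at 4046 CPM in vancomycin microglia (33954 UMIs), against 1307 CPM in control microglia (8227 UMIs), a ratio of 3.10 (3.02 to 3.17) and a log2 ratio of 1.62. Ier2, a nuclear immediate early gene, was at 1429.5 CPM in vancomycin microglia (11996 UMIs), against 694 CPM in control microglia (4366 UMIs), a ratio of 2.06 (1.99 to 2.13). Its log2 ratio of 1.03 lay at the edge of the 2-fold rule and between 0.79 and 1.31 under the alternatives. Further members were on the vancomycin side by less than 2-fold. Egr1 was at 2995 CPM with vancomycin against 1639 CPM in the control (log2 ratio 0.87) and Klf2 at 1787 CPM with vancomycin against 951 CPM in the control (0.90). Junb, the member with the highest level in microglia, was at 5006 CPM with vancomycin against 4097 CPM in the control (0.29), Zfp36 at 3507 CPM with vancomycin against 2311 CPM in the control (0.60), and Jun at 2718 CPM with vancomycin against 1842 CPM in the control (0.56).

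The 6 lower genes in vancomycin microglia were Klf10, Trib1, Fosl1, Gadd45b, Maff and Socs3. Trib1, a pseudokinase gene whose protein directs the factor C/EBPα to degradation, was at 92.4 CPM in vancomycin microglia (775 UMIs), against 561 CPM in control microglia (3534 UMIs), a ratio of 0.165 (0.152 to 0.178). Klf10, a zinc finger gene induced by TGF-beta, was at 18.1 CPM in vancomycin microglia (152 UMIs), against 148 CPM in control microglia (930 UMIs), a ratio of 0.123 (0.103 to 0.146). Their log2 ratios were -2.48 and -2.49. Gadd45b, a stress gene that acts on p38 and JNK signalling, was at 168 CPM with vancomycin against 543 CPM in the control (-1.64), and Socs3, an inhibitor of cytokine receptor signalling, at 490.2 CPM with vancomycin against 1029 CPM in the control (-1.05). Fosl1 and Maff were also lower but stayed under 100 CPM in both libraries, Fosl1 with 6 UMIs in vancomycin microglia and 215 UMIs in control microglia. Atf3, a stress-induced factor of the ATF/CREB family, was at 1417 CPM with vancomycin against 2481 CPM in the control (-0.80), and Jund at 1556 CPM with vancomycin against 2936 CPM in the control (-0.91), both short of 2-fold. Within this cell class Fos, Egr1, Ier2 and Klf2 thus lay on the vancomycin side and Trib1, Klf10, Gadd45b and Atf3 on the control side. Of these, Egr1, Klf2 and Atf3 were short of 2-fold.

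The share of microglia in which these 8 genes were detected was read after thinning each cell to 1000 UMIs, which left 1047 vancomycin and 904 control microglia and left out 19 and 56. Fos was detected in 81.2% of vancomycin microglia (78.7 to 83.5) and in 32.2% of control microglia (29.2 to 35.3), and without thinning in 84.2% and 58.1%. Trib1 was detected in 6.30% of vancomycin microglia (4.91 to 7.95) and in 31.9% of control microglia (28.8 to 35.01), and without thinning in 35.3% and 58.2%. Higher shares with vancomycin were also found for Egr1 (75.5% against 39.4% in the control), Ier2 (61.99% against 33.8%) and Klf2 (57.9% against 31.6%), and lower ones for Klf10 (1.72% against 10.5%) and Gadd45b (13.7% against 27.3%). Atf3 was detected in 51.9% of vancomycin and 58.4% of control microglia, but without thinning in 73.0% and 68.2%, so its direction depended on the thinning. Socs3, lower by level but not among the 8 genes, was detected without thinning in 71.9% of vancomycin and 63.6% of control microglia. T cells at the same 1000 UMIs gave 12.1% for Fos with vancomycin and 7.88% in the control, and 3.37% and 3.52% for Trib1. Microglia fell into cells with hardly any of the 35 genes and cells with many. At most 2 of the 35 were detected in 144 of 1047 vancomycin microglia (13.8%, 11.7 to 16.0) and in 234 of 904 control microglia (25.9%, 23.1 to 28.9), and at least 8 in 80.4% and 67.9%. Microglia with at most 2 had a median of 3036.5 UMIs and 2.17% mitochondrial UMIs with vancomycin, and 2307 UMIs and 2.74% in the control. Those with at least 8 had 7433.5 UMIs and 1.10% with vancomycin and 7785 UMIs and 1.10% in the control. The gate markers of microglia summed to 3327 CPM in vancomycin and 4724 CPM in control cells with at most 2, and to 3665 and 4710.5 CPM in those with at least 8. The part of RNA quality in this split was not tested.

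**Figure D3:**
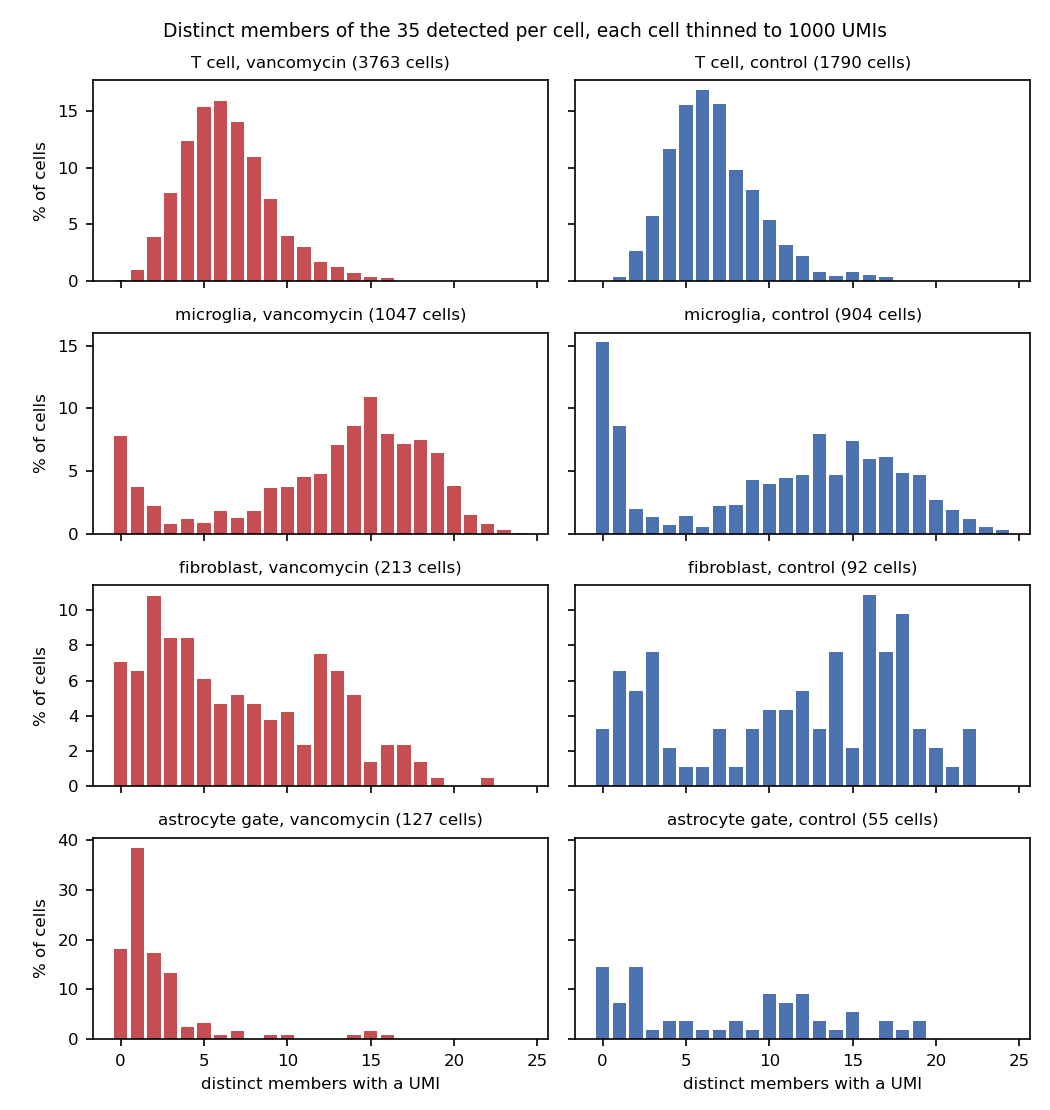
Percent of cells (vertical axis) by the number of distinct members of the list with a UMI (horizontal axis) in T cells, microglia, fibroblasts and cells of the astrocyte gate (rows), for vancomycin (red, left) and control (blue, right), after thinning each cell to 1000 UMIs. T cells form a single peak in both libraries, with a median of 6 members each, while microglia have a second peak at 0 to 2 members, which holds 13.8% of vancomycin and 25.9% of control cells.

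In T cells, 1 of the 33 measured genes was higher, where 2.37% of all genes were, and 3 were lower, where 1.19% were. Jun, the AP-1 partner of the Fos proteins, was at 183 CPM in vancomycin T cells (3774 UMIs), against 58.1 CPM in control T cells (613 UMIs), a ratio of 3.15 (2.89 to 3.44). Fosl2, a Fos family gene known from T helper cells, went the other way, at 122 CPM in vancomycin T cells (2519 UMIs), against 391 CPM in control T cells (4121 UMIs), a ratio of 0.313 (0.298 to 0.329) and a log2 ratio of -1.60. Dusp5, whose protein removes phosphate from ERK in the nucleus, was at 339 CPM with vancomycin against 726 CPM in the control (-1.08), and Dusp2, another nuclear MAP kinase phosphatase gene of activated lymphocytes, at 269.8 CPM with vancomycin against 575 CPM in the control (-1.07). The members with the highest levels in T cells differed little: Junb was at 3366 CPM with vancomycin against 3724 CPM in the control (-0.15), Btg1 at 1313 CPM with vancomycin against 1849 CPM in the control (-0.49) and Jund at 963 CPM with vancomycin against 1072 CPM in the control (-0.15). Dusp1, the phosphatase gene that ends p38 and JNK signalling, was at 685 CPM with vancomycin against 422 CPM in the control (0.69), so the 3 phosphatase genes did not lie on one side. At 1000 UMIs per cell, Fosl2 was detected in 11.4% of vancomycin T cells (10.4 to 12.5) and in 31.5% of control T cells (29.4 to 33.7), and Jun in 10.9% (9.89 to 11.9) and 3.69% (2.86 to 4.67). Without thinning these shares were 38.4% and 71.0% for Fosl2 and 28.7% and 12.1% for Jun. In plasma cells at 1000 UMIs Fosl2 was detected in 0.396% with vancomycin and 1.19% in the control.

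Free RNA from microglia was set beside these levels. The microglia gate markers in T cells stood at 1.98% of their level in microglia with vancomycin and at 1.36% in the control. Jun in T cells stood at 6.74% of its microglial level with vancomycin and at 3.16% in the control, and Fos at 6.75% and 11.8%. Junb stood at 67.2% and 90.9%. The part of free RNA in the lower T cell levels, such as that of Jun in the control, was not tested.

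**Figure D4:**
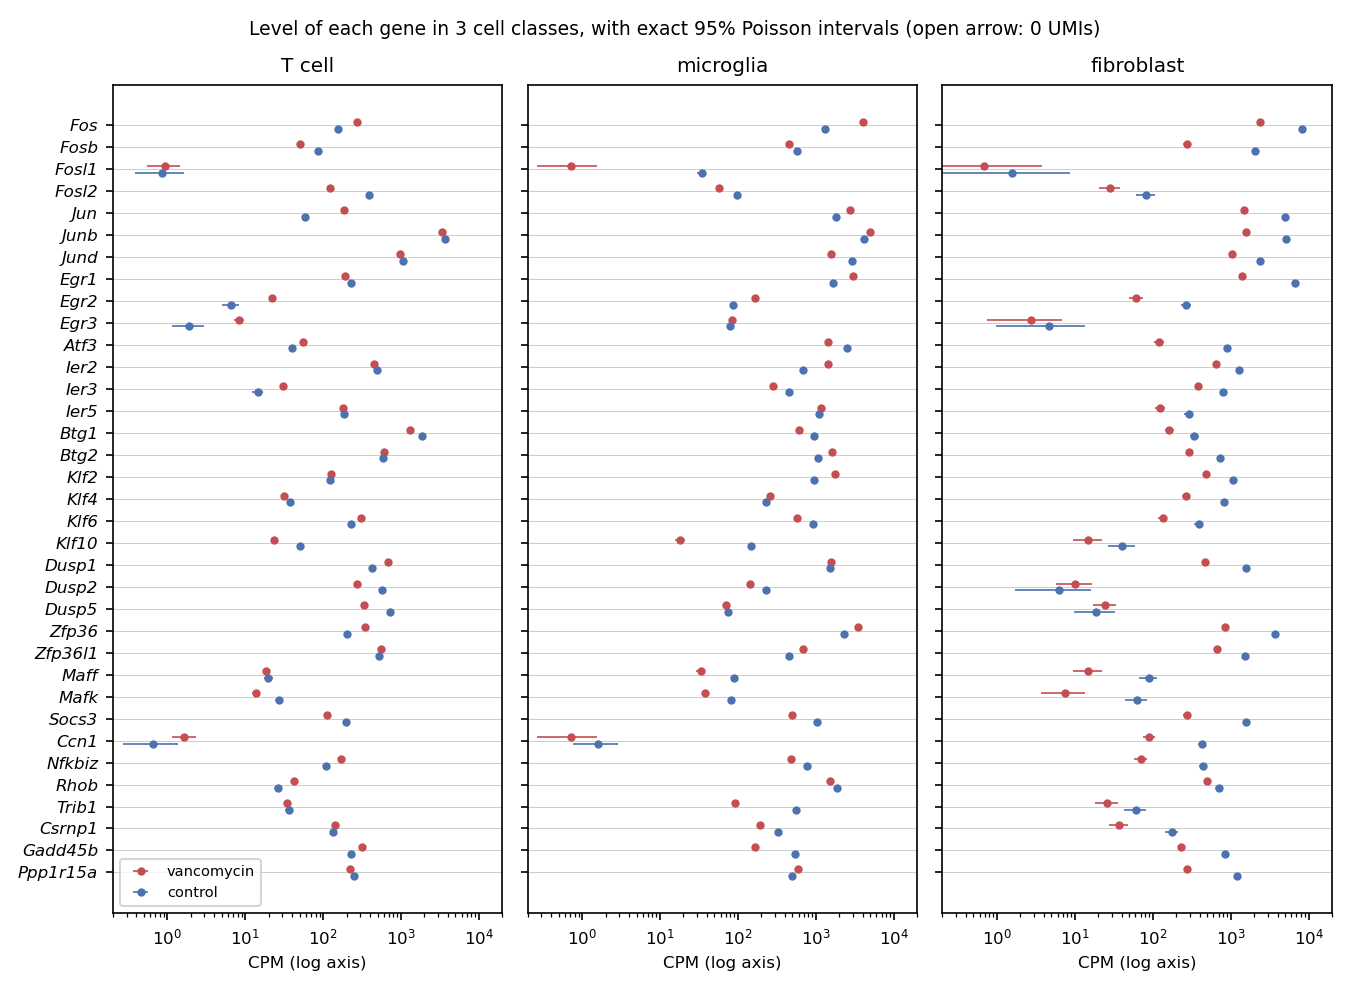
Level of each of the 35 genes (rows) in T cells, microglia and fibroblasts, in CPM on a log axis, for vancomycin (red, upper point) and control (blue, lower point), with exact 95% Poisson intervals, which are narrower than the points for most genes. In T cells Jun lies to the right and Fosl2, Dusp2 and Dusp5 to the left with vancomycin, in microglia Fos to the right and Klf10 and Trib1 to the left, and in fibroblasts most genes lie to the left.

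CD8 T cells (1462 vancomycin and 888 control cells) and CD4 T cells (1280 and 611), called from UMIs of Cd8a or Cd8b1 and of Cd4, are given side by side, and the difference between them has no test. In CD8 T cells 3 of 33 genes were higher, where 2.92% of all genes were, and 3 were lower, where 1.63% were. In CD4 T cells 1 of 33 was higher, where 3.22% were, and 2 were lower, where 1.6% were. The members past 2-fold in CD4 T cells were Jun on the higher and Fosl2 and Dusp5 on the lower side. Jun was at 191 CPM with vancomycin against 59.6 CPM in the control in CD8 T cells (1.53) and at 148 CPM with vancomycin against 43.2 CPM in the control in CD4 T cells (1.57). Fosl2 was at 128 CPM with vancomycin against 410.1 CPM in the control in CD8 T cells (-1.61) and at 107 CPM with vancomycin against 380.1 CPM in the control in CD4 T cells (-1.74). Fos was at 273 CPM with vancomycin against 120.1 CPM in the control in CD8 T cells (1.12), past 2-fold, and at 277 CPM with vancomycin against 140.4 CPM in the control in CD4 T cells (0.93), short of it. Dusp2 was past 2-fold in CD8 T cells alone (-1.27, against -0.79 in CD4 T cells), and Dusp5 was lower in CD8 (-1.07) and CD4 T cells (-1.23). Egr2, a zinc finger gene induced by antigen receptors, made up the 3 higher genes in CD8 T cells together with Jun and Fos (1.14). It was at 18.8 CPM with vancomycin against 3.09 CPM in the control there (175 and 17 UMIs), a level under 100 CPM in both. Egr2 passed the limit of UMIs for a ratio only with the vancomycin UMIs. Its control level lay under the CPM added, so the size of its log2 ratio depends on the amount added.

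NK cells had 4 higher genes of the 23 measured, where 3.64% of all genes were, and 2 lower genes, where 5.29% were, on 111 and 87 cells. Jun was at 263 CPM in vancomycin NK cells (133 UMIs), against 77.6 CPM in control NK cells (36 UMIs), a ratio of 3.39 (2.33 to 5.05). Fosl2 was at 148 CPM in vancomycin NK cells (75 UMIs), against 472 CPM in control NK cells (219 UMIs), a ratio of 0.315 (0.239 to 0.411). Dusp2 was at 459 CPM with vancomycin against 1293 CPM in the control (-1.47). Nfkbiz, which encodes a nuclear IκB protein, was at 166 CPM with vancomycin against 58.2 CPM in the control (1.37), Gadd45b at 224 CPM with vancomycin against 94.8 CPM in the control (1.16) and Fos at 174 CPM with vancomycin against 73.3 CPM in the control (1.15). Each of these 4 higher genes had under 50 UMIs in control NK cells and passed that limit only with the vancomycin UMIs. With each cell thinned to 1000 UMIs, Gadd45b in NK cells fell under 2-fold and its log2 ratio under the alternatives reached as low as 0.25. Junb, Btg1 and Jund, with the highest levels, were within 2-fold in NK cells.

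Plasma cells, the antibody-secreting cells, had 2 higher genes of 33 measured, where 2.6% of all genes were, and 1 lower gene, where 0.982% were. Fos was at 705 CPM in vancomycin plasma cells (12024 UMIs), against 254 CPM in control plasma cells (546 UMIs), a ratio of 2.78 (2.55 to 3.03) and a log2 ratio of 1.44. Klf2 was at 67.5 CPM with vancomycin against 21.4 CPM in the control (1.30), under 100 CPM in both libraries. In control plasma cells Klf2 had under 50 UMIs. Trib1 was the lower gene, at 76.3 CPM in vancomycin plasma cells (1300 UMIs), against 218 CPM in control plasma cells (468 UMIs), a ratio of 0.351 (0.315 to 0.390). Jund, the member with the highest level in plasma cells, was at 989.5 CPM with vancomycin against 1349 CPM in the control (-0.44), and Junb at 438 CPM with vancomycin against 410 CPM in the control (0.09).

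In fibroblasts, which build the matrix and sheaths of the nerve, nearly the whole list lay on the control side. Of 30 measured genes, 27 were lower, where 2.49% of all genes were, and 0 were higher, where 2.68% were, and the interval of the ratio lay below 1 for all 30. Fos, the highest member, was at 2369 CPM in vancomycin fibroblasts (3493 UMIs), against 8186 CPM in control fibroblasts (5252 UMIs), a ratio of 0.289 (0.277 to 0.302). Egr1, a zinc finger factor induced by serum and injury, was at 1399.6 CPM in vancomycin fibroblasts (2064 UMIs), against 6717 CPM in control fibroblasts (4310 UMIs), a ratio of 0.208 (0.198 to 0.220). Junb was at 1569.8 CPM with vancomycin against 5121 CPM in the control (-1.70) and Jun at 1491 CPM with vancomycin against 5006 CPM in the control (-1.74). The largest differences were those of Fosb, at 272 CPM with vancomycin against 2060.4 CPM in the control (-2.88), Atf3, at 120 CPM with vancomycin against 902 CPM in the control (-2.81), Nfkbiz, at 69.8 CPM with vancomycin against 446 CPM in the control (-2.51), and Socs3, at 273 CPM with vancomycin against 1577 CPM in the control (-2.49). By role, 4 of 4 measured genes of mRNA decay were lower, as were 5 of 6 inhibitors of signalling and stress genes and Dusp1, the 1 MAP kinase phosphatase measured. Zfp36 was at 858 CPM with vancomycin against 3729.7 CPM in the control (-2.11), Ppp1r15a at 279 CPM with vancomycin against 1191 CPM in the control (-2.06) and Dusp1 at 475 CPM with vancomycin against 1571 CPM in the control (-1.70). The other lower genes at 100 CPM or more were Egr2, Csrnp1, Gadd45b, Ccn1, Klf4, Klf6, Klf2, Btg1, Btg2, Jund, Zfp36l1, Ier3 and Ier5, with log2 ratios between -2.15 and -1.02. Fosl2, Maff and Mafk were lower too but stayed under 100 CPM. Of these, Maff and Mafk had under 50 UMIs in vancomycin fibroblasts and passed that limit only with the control UMIs. Ier2 (-0.99), Trib1 (-0.98) and Rhob, which encodes a small GTPase of the endosome and cytoskeleton, (-0.50) were short of 2-fold.

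At 1000 UMIs per cell, at least 8 of the 35 genes were detected in 42.7% of 213 vancomycin fibroblasts (36.0 to 49.7) and in 69.6% of 92 control fibroblasts (59.1 to 78.7), and without thinning in 78.6% and 75.5%. The thinned and unthinned shares thus differ in direction. The median depth was 5742 UMIs in vancomycin and 5027 UMIs in control fibroblasts, and in those with at least 8 genes 4818 and 7024 UMIs. Mitochondrial UMIs had a median of 2.11% in vancomycin and 1.71% in control fibroblasts with at least 8 genes, and of 3.99% and 5.76% in those with at most 2. Fibroblast gate markers summed to 10710.4 CPM with vancomycin and to 12528 CPM in the control, and the fibroblast markers kept out of the gate to 6925 and 6677 CPM. Within the class the gate markers were highest in fibroblasts with at least 8 of the 35 genes, at 16109 CPM with vancomycin and 13407 CPM in the control. They were at 7301 and 9769 CPM in those with at most 2, and at 7774 and 8709.9 CPM in those with 3 to 7. The markers kept out of the gate did not follow the list. From at most 2 over 3 to 7 to at least 8 genes, they were at 6542, 7338 and 6669 CPM with vancomycin. In control fibroblasts they were at 8599, 8851 and 6082 CPM. The part of the mix of fibroblasts in the lower levels was not tested.

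Oligodendrocyte precursors, the dividing cells that give rise to myelinating glia, also had most of the list on the control side. They had 974 vancomycin and 49 control cells, under the limit of 50, and were added after the data were seen. Their gate markers summed to 7331 CPM with vancomycin and 7135 CPM in the control, and the markers kept out of the gate to 7562 and 7808 CPM. Of 34 measured genes 28 were lower, where 2.27% of all genes were, and 1 was higher, where 5.05% were, with a median log2 ratio of -1.53. The 1 higher call was Dusp2, with 75 UMIs in vancomycin and 0 UMIs in control precursors, out of 475525 UMIs there. It passed the limit of 50 UMIs through the vancomycin library alone at a level near the 10 CPM added, so nothing is read from it. Fos was at 1727 CPM in vancomycin precursors (12586 UMIs), against 9856 CPM in control precursors (4687 UMIs), and Egr1 at 1301 CPM in vancomycin precursors (9477 UMIs), against 9093 CPM in control precursors (4324 UMIs), with log2 ratios of -2.51 and -2.80. Jun was at 910.1 CPM with vancomycin against 6774 CPM in the control (-2.88). The genes not lower included Btg1, at 120.5 CPM with vancomycin against 94.6 CPM in the control (0.32), Btg2, at 127 CPM with vancomycin against 172 CPM in the control (-0.41), and Ier5, at 98.5 CPM with vancomycin against 75.7 CPM in the control (0.34). At 1000 UMIs per cell the precursors held a median of 5 of the 35 genes in 964 vancomycin cells and of 12 in 48 control cells.

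Dendritic cells, the antigen-presenting cells that prime T cells, had 663 vancomycin and 41 control cells, again under the limit of 50, and were added after the data were seen. Of 33 measured members 5 were higher, where 4.67% of all genes were, and 5 were lower, where 4.61% were, with a median log2 ratio of -0.06. The cells under this gate differed in their markers, with gate markers at 2265 CPM with vancomycin and 3648 CPM in the control and the markers kept out of the gate at 1284 and 694 CPM, and the part of that mix in the ratios was not tested. The 3 EGR genes lay on the vancomycin side: Egr1 was at 658 CPM with vancomycin and 176 CPM in the control (log2 ratio 1.85), Egr3 at 94.5 and 26.5 CPM (1.52) and Egr2 at 89.0 and 28.4 CPM (1.37). With them were Klf2, at 246 and 47.3 CPM (2.16), and Ier2, at 579 and 253 CPM (1.16). Egr2, Egr3 and Klf2 had under 50 UMIs in control dendritic cells, out of 528835 UMIs there. These genes passed that limit only with the vancomycin UMIs. On the control side were Klf6, at 314 and 915 CPM (-1.52), Gadd45b, at 208 and 577 CPM (-1.43), and Fosb, at 193 and 407 CPM (-1.04), and the phosphatase genes Dusp5, at 275 and 736 CPM (-1.38), and Dusp1, at 496 and 1121 CPM (-1.16).

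In cells of the astrocyte gate, 26 of 28 measured genes were lower, where 4.84% of all genes were, and 0 were higher, where 7.08% were. Fos was at 1172 CPM in vancomycin cells of the astrocyte gate (838 UMIs), against 6644 CPM in control cells of the astrocyte gate (2871 UMIs), a ratio of 0.176 (0.163 to 0.191). Ccn1 was at 399 CPM in vancomycin cells of the astrocyte gate (285 UMIs), against 3518 CPM in control cells of the astrocyte gate (1520 UMIs), and Socs3, induced in astrocytes by the interleukin 6 family, at 131 CPM in vancomycin cells of the astrocyte gate (94 UMIs), against 2203 CPM in control cells of the astrocyte gate (952 UMIs), with log2 ratios of -3.11 and -3.97. Jun was at 477 CPM with vancomycin against 3235 CPM in the control (-2.74), Egr1 at 558 CPM with vancomycin against 3001 CPM in the control (-2.41) and Fosb at 109 CPM with vancomycin against 1129 CPM in the control (-3.26). Maff, a small Maf gene, had the lowest log2 ratio, at -4.37. It was at 5.59 CPM in vancomycin cells of the astrocyte gate (4 UMIs), against 312 CPM in control cells of that gate (135 UMIs). The vancomycin level of Maff lay under the 10 CPM added, so the size of its log2 ratio depends on the amount added. Under the alternatives that ratio lay between -5.57 and -2.70, so only its direction is read and not its rank. The other lower genes at 100 CPM or more were Atf3, Klf6, Klf4, Klf2, Nfkbiz, Zfp36, Trib1, Ier3, Junb, Egr2, Ppp1r15a, Csrnp1, Jund, Rhob, Btg2, Zfp36l1, Ier2, Dusp1 and Gadd45b, with log2 ratios between -2.65 and -1.005. Ier5 (-0.84) and Btg1 (-0.99) were short of 2-fold. Among the lower genes, Maff, Egr2, Klf4, Trib1 and Csrnp1 had under 50 UMIs in vancomycin cells of the astrocyte gate. They passed that limit only with the control UMIs. Without thinning, Egr2 was detected in 4 of 144 vancomycin and 13 of 58 control cells of the gate, and Klf4 in 5 and 19. Since the markers show unlike cells under this gate, the comparison was repeated within narrower groups of cells after the data were seen. Among cells with no Gfap UMI (84 vancomycin and 48 control cells) the 35 genes summed to 7261 CPM with vancomycin and 35712 CPM in the control, and 24 of 27 measured genes were lower, where 6.02% of all genes were, and 0 higher, where 6.48% were. Among cells with a UMI of Six3, Gpr50, Scn7a or Col23a1, picked by hand after the control cells had been seen and of which Scn7a and Gpr50 are among their 15 leading genes (65 and 42 cells), the sums were 8489 and 38308 CPM, and 24 of 28 were lower, where 5.28% were, and 0 higher, where 5.8% were. The cells with at least 8 members at 1000 UMIs, 6 with vancomycin and 28 in the control, had gate markers at 2597 and 3879 CPM, against 12769 and 10162 CPM in the 94 and 20 cells with at most 2. Cell identity and level of the list therefore cannot be told apart within this gate.

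Another 3 lists give the surroundings of the 35 genes: 25 other early response genes, 13 heat shock genes and 20 upstream regulators (serum response factor, CREB and MAP kinase pathway genes). In fibroblasts 10 of 19 measured other early response genes were lower, where 2.49% of all genes were, and 0 higher, where 2.68% were. Their median log2 ratio was -1.01. The same shares of all genes apply to the other lists in fibroblasts. Nr4a1, an orphan nuclear receptor gene, was at 297 CPM with vancomycin and 1502 CPM in the control. Ccn2 was at 68.5 and 289.9 CPM, and Bhlhe40 at 116 and 397 CPM. Heat shock genes were lower too, in 6 of 13 measured, with Dnajb1, a co-chaperone, at 103 CPM with vancomycin and 1018 CPM in the control (log2 ratio -3.18), and the inducible chaperones Hspa1a at 123 and 602 CPM and Hspa1b at 87.5 and 405 CPM. Of the upstream regulators 1 of 15 was lower in fibroblasts and 0 higher, with a median of 0.11. In cells of the astrocyte gate 10 of 13 other early response genes and 3 of 13 heat shock genes were lower. Of the upstream regulators 2 of 7 measured were lower there, Crem and Crtc2, with a median log2 ratio of -0.20. Over all genes 4.84% were lower there. Dnajb1 was at 61.5 CPM with vancomycin and 488 CPM in the control. The part of dissociation, which is known to induce the same genes, was not tested.

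In T cells 3 of 23 other early response genes were higher, where 2.37% of all genes were, and 4 lower, where 1.19% were. Nr4a3, a nuclear receptor gene induced by the T cell receptor, was at 128 CPM with vancomycin and 469 CPM in the control (log2 ratio -1.80), Rgs1, a regulator of chemokine receptor signalling, at 485 and 1522 CPM (-1.63), and Nfkbia, the inhibitor of NF-κB, at 977 and 380 CPM (1.34). The upstream regulator Crem, a cAMP-responsive factor gene, was the only one of its 20 measured genes past 2-fold in T cells, at 130 and 297 CPM (-1.13). In NK cells 3 of 17 other early response genes were higher, where 3.64% of all genes were, and 4 lower, where 5.29% were. Myc was at 105 CPM with vancomycin and 17.2 CPM in the control (2.08), Nfkbia at 908 and 267 CPM (1.73) and Nr4a3 at 168 and 453 CPM (-1.38). The others past 2-fold in NK cells, named after their values were seen, were Pim1 (1.03) on the higher and Nr4a2 (-1.37), Rgs1 (-1.03) and Per1 (-1.01) on the lower side. In microglia 2 of 22 were higher, where 2.55% of all genes were, and 2 lower, where 2.28% were. Pim1, a kinase gene induced by cytokines, was at 149 and 437 CPM (-1.49). Cebpd was at 319 and 109 CPM (1.47) and Dusp6 at 138 and 58.6 CPM (1.10). In T cells and microglia 0 of 13 heat shock genes were past 2-fold in either direction.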

How the data were processed

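Single cells of 1 vancomycin and 1 control library were read with 10x Genomics 5′ chemistry, per the labels' protocols. The authors deposited UMI counts, not normalized, from Cell Ranger 7.2.0 for vancomycin and 6.0.1 for the control, per the file headers. The submitters' processing notes also name mm10 and Partek, and no source used here says whether intronic reads were counted. Cells under 500 UMIs or 200 genes, or above 20% mitochondrial UMIs, were left out, which removed 870 vancomycin barcodes (5.24%) and 164 control barcodes (3.84%). No class was given to 3081 vancomycin cells (19.6%) and 774 control cells (18.8%). Doublets were kept in the main values. At a Scrublet score of 0.2, 522 vancomycin and 48 control cells lay above, and leaving them out was an alternative. UMIs were summed per class and library and scaled to CPM, and intervals are exact Poisson for levels, exact conditional Poisson for ratios and Clopper-Pearson for shares. Gene models came from GENCODE M21, promoter windows from RefSeq (GRCm38.p6).

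The tools were scanpy 1.11.5, scipy 1.17.1, numpy 2.4.6, matplotlib 3.10.9, anndata 0.12.19 and pandas 2.3.3 in Python 3.11.15, and, for scaling factors only, edgeR 4.0.16 and DESeq2 1.42.0 in R 4.3.3. The ratio and interval steps were tested on simulated data. In each class, members at least 2-fold apart with an interval leaving out 1 and at least 100 CPM in the higher library were named, with the 3 highest levels and at most 3 genes per other list. The members, gates and lists were chosen with earlier results of these data known.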

Additional observations from a re-analysis of the deposited data

Results flagged for a closer look

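For 6 genes the 2-fold rule was passed in opposite directions in 2 cell classes of the same libraries, and none of these differences was tested. The classes farthest apart are given for each. The log2 ratio of Fos was 1.62 in microglia and -2.49 in cells of the astrocyte gate, a difference of 4.12. Ier2 had 1.03 in microglia and -1.29 in cells of the astrocyte gate, a difference of 2.32. For Jun the values were 1.64 in NK cells and -2.74 in cells of the astrocyte gate (4.38), and for Klf2 1.30 in plasma cells and -2.44 in cells of the astrocyte gate (3.75). Nfkbiz had 1.37 in NK cells and -2.51 in fibroblasts (3.88), and Gadd45b 1.16 in NK cells and -1.81 in fibroblasts (2.97), and Gadd45b was also lower in microglia, at -1.64. Jun, Nfkbiz and Gadd45b had under 50 UMIs in control NK cells, and Klf2 had under 50 in control plasma cells. In those classes they passed that limit only with the vancomycin UMIs. For the genes set against the astrocyte gate, fibroblasts also lay below 0, at -1.78 for Fos, -0.99 for Ier2, -1.74 for Jun and -1.12 for Klf2.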

How the results depend on the processing

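Each count was recomputed under 17 alternatives, and all 74 pairs of gene and class past 2-fold kept their sign in every alternative that measured them. Between 0 and 16 of them fell under 2-fold. Over the 6 classes, the 9 higher pairs became 5 with at least 200 UMIs per gene and 4 with 50 CPM added, and the 65 lower pairs became 39 without the astrocyte gate, an alternative chosen after the data were seen. In T cells the 1 higher gene became 4 with 1 CPM added and 2 each with a gate without margin and a total without mitochondrial and ribosomal genes, and the 3 lower genes became 1 with 50 CPM added. In microglia the 2 higher genes became 5 each with every cell weighted equally and with cells thinned to 1000 UMIs, and 1 each with TMM factors, centring on genes of like span, a gate without margin and 50 CPM added. The 6 lower genes in microglia became 3 with 50 CPM added. The causes were not tested. With at most 5% mitochondrial UMIs the control astrocyte gate held 41 cells, and with 4 markers 46. No paired analysis was possible because each group is 1 library. Counting intervals say nothing of the spread between mice or libraries, and genes under 50 UMIs in a class were not compared.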

Other observations

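Some classes reached 50 cells in the vancomycin library alone and entered no comparison. Border-associated macrophages (123 cells) held Klf2 at 2180.4 CPM and Dusp1 at 2306 CPM, and endothelial cells (107 cells) held Klf2 at 3325 CPM and Ier3 at 954 CPM. Oligodendrocytes (4156 cells) had a median of 2 of the 35 genes per cell at 1000 UMIs, and in 11.8% of them (10.8 to 12.8) none was detected.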
